A study of Sus scrofa with 16 samples.

Results

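The CD surface antigens described here are the 38 genes whose array annotation gave exactly 1 symbol made of CD, digits and at most 1 closing letter, with CD163 and CD74 left out. They were chosen by name from 6765 genes with 1 symbol on the array. Where several probe sets named a gene, the probe set with the highest mean over all 16 arrays stood for it, so that 64 probe sets came down to 38. The study hybridised liver and subcutaneous backfat RNA of Iberian pigs aged 211 days to Affymetrix porcine arrays, 1 array per sample. Males and females received feed at a high level, or at a low level restricted by 20%, and each of the 8 combinations of tissue, sex and level had 2 arrays. No genetic change or drug is named in the labels, and they leave it unsaid whether males were castrated. The 4 males, numbered 14 to 17, gave both tissues. Female numbers 20 and 21 occur in both tissues with opposite feeding levels, so female tissues were not paired.

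CD, or cluster of differentiation, is a naming scheme for molecules that antibodies recognise on leukocytes, and many of these molecules also sit on endothelium, fat cells or hepatocytes. The family is therefore one of names and not of descent. It holds tetraspanins, which organise other membrane proteins, regulators that shield a cell from complement, receptors of macrophages, and the receptor chains of T and B cells. Liver carries a large resident macrophage population, the Kupffer cells, and adipose tissue holds macrophages and lymphocytes among fat cells and a dense capillary bed.

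Values are log2 expression values made by GCRMA, on which a probe set without signal lies near a floor of 2 to 3, so a value of 4 was taken as the limit of a low level. Differences and folds compare 1 probe set between arrays, and between genes it is only said which lay above or below 4. Array medians ran from 3.94 to 4.13. All 10 hepatocyte markers stood above 4 on every liver array, and all 6 measured adipocyte markers did so on every backfat array, which fits the labelled tissues. The array of the high-fed female 21 stood apart in backfat, with a median correlation of 0.978 with the other backfat arrays against 0.986 to 0.989 for the rest. In bulk tissue, fewer cells of a type and less RNA per cell cannot be told apart.

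The first result concerns which CD genes were measurable at all. Of the 38 genes, 13 stood above 4 on all 16 arrays, 14 on none and CD180 on 1 array alone. A gene entered the tissue test when it was above 4 on at least 2 arrays, which 23 members did. That is 60.5% of the members, against 77.8% of all genes with 1 symbol. The genes that did not enter were mostly lymphocyte receptors, 7 of 10 T and natural killer cell genes and 3 of 3 B cell genes. Their values, with those of the other untested members, lay between 2.11 and 4.30. The heat map of all members shows these rows near the floor.

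**Figure D1:**
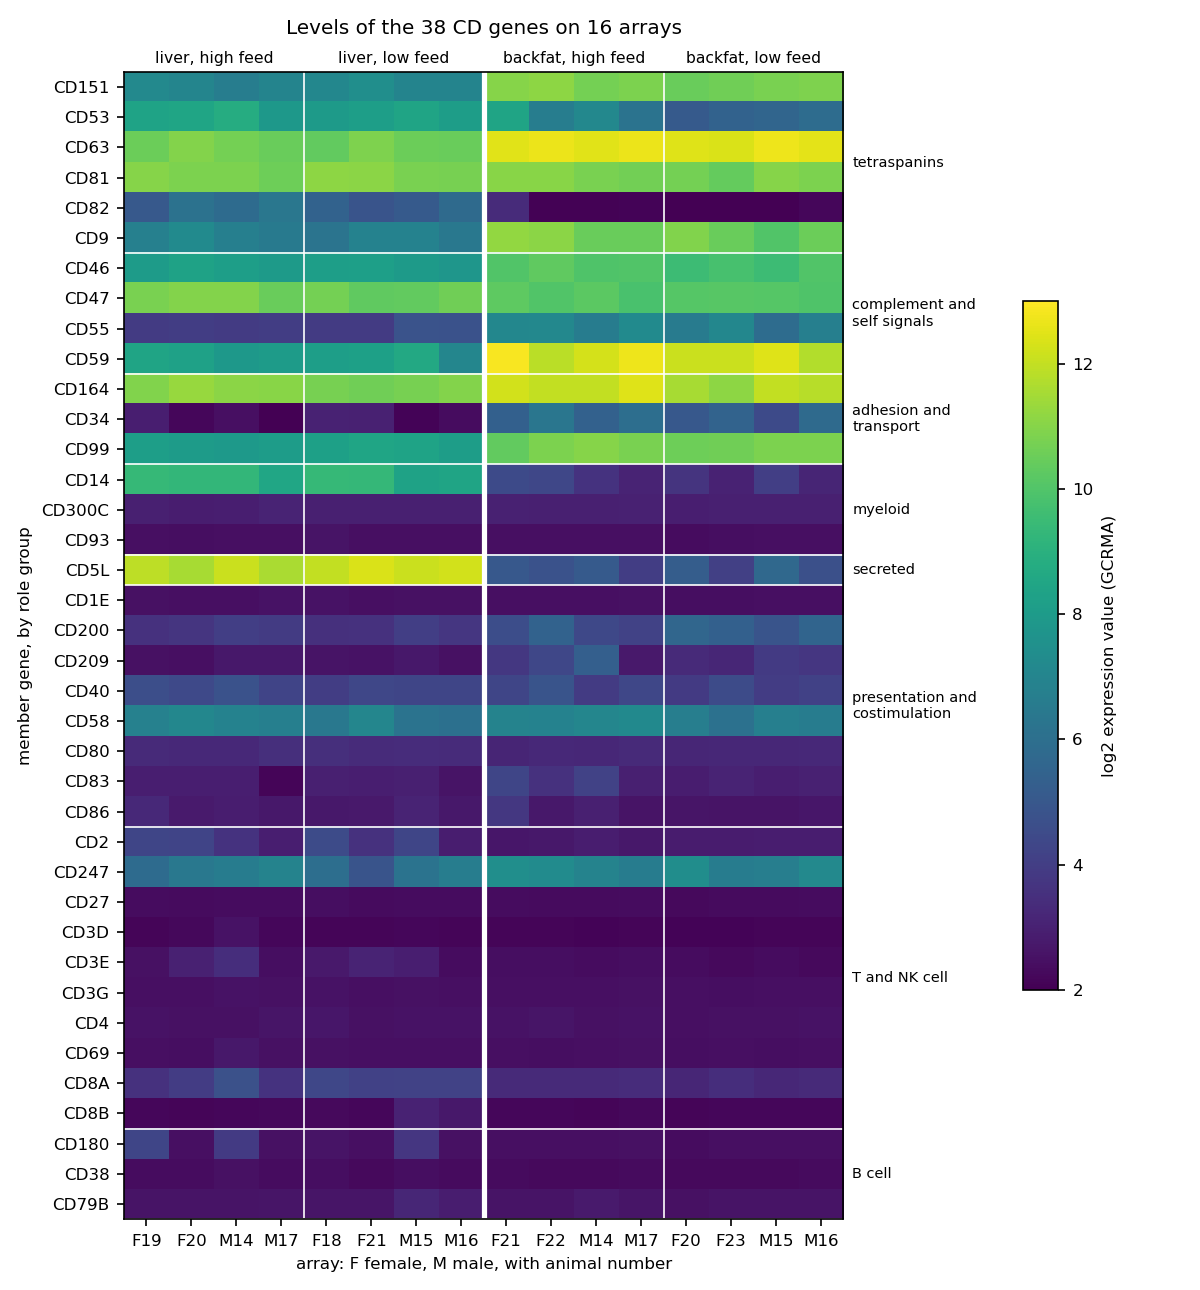
Each row is 1 of the 38 CD genes, grouped by role, and each column 1 of the 16 arrays, ordered by tissue, feeding level, sex and animal; the colour gives the log2 expression value. Tetraspanins and complement regulators are bright in 1 or both tissues, CD5L and CD14 are bright in liver, and most rows of T and B cell genes stay near the floor.

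The main comparison asked how the members differ between backfat and liver. Among members for which a fold can be given, CD59, CD9 and CD151 had the largest ones towards backfat, at 18.2-fold, 15.3-fold and 13.5-fold. CD5L was 143-fold lower in backfat, and CD14, the receptor for bacterial lipopolysaccharide, was between 8.35 and 9.36 in liver and below 4 on 5 of 8 backfat arrays. In limma, fitted over all 13962 probe sets with Benjamini-Hochberg adjustment, 20 of the 23 tested members passed the threshold of 0.05, 13 higher and 7 lower in backfat. That count has to be read against the whole array, where the tissues differed at 75.7% of the probe sets tested, 43.6% higher and 32.2% lower in backfat. The median difference of the tested members, backfat minus liver, was 0.84 on the log2 scale, beside 0.15 for all probe sets. The 8 arrays of one tissue did not overlap those of the other for 16 members, beside 44.9% of all probe sets; 10 of these were higher in backfat, beside 26.7%, and 6 lower, beside 18.3%. Members that passed the filter only through the tissue in which they are high had to differ, so this count supports nothing about the family as a whole.

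**Figure D2:**
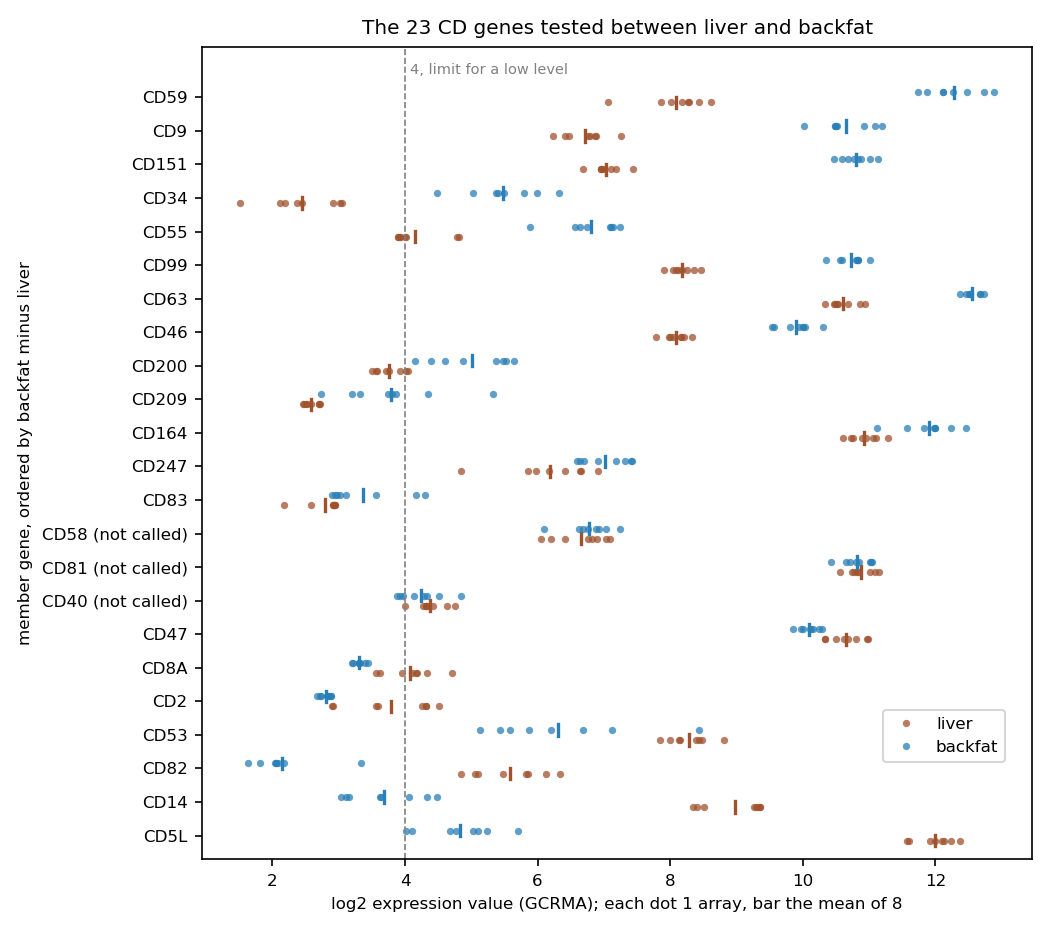
Each dot is 1 array and each bar the mean of 8 arrays of a tissue, on the log2 expression scale, for the 23 tested genes ordered by backfat minus liver. CD59 ran from 7.07 to 8.62 in liver and from 11.74 to 12.89 in backfat, and CD5L stands at the other end, with backfat values of 4.01 to 5.71 against 11.58 to 12.37.

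Tetraspanins span the membrane repeatedly and gather integrins, receptors and proteases into patches. Of the 6 measured, 3 were called higher and 2 lower in backfat, and CD81 did not pass. Over all probe sets 43.6% were called higher and 32.2% lower. CD9, found on many adherent cells and on extracellular vesicles, ran from 6.23 over a median of 6.77 to 7.26 in liver and from 10.02 over 10.51 to 11.20 in backfat. Its log2 difference was 3.94 ± 0.14 (SE; limma adjusted p = 2.41e-10), and the tissues did not overlap. CD151, a partner of laminin-binding integrins, ran from 6.68 over 6.99 to 7.44 in liver and from 10.47 over 10.81 to 11.13 in backfat. It differed by 3.76 ± 0.09 (SE; limma adjusted p = 5.20e-12), again without overlap. CD63, a resident of late endosomes and lysosomes, ran from 10.34 to 10.94 in liver and from 12.38 to 12.73 in backfat, a 3.89-fold difference with a backfat range of 0.34.

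The other tetraspanins did not follow these. CD53, which is made by leukocytes, ran from 7.85 over 8.27 to 8.82 in liver and from 5.13 over 6.04 to 8.43 in backfat. It was 3.94-fold lower in backfat (limma adjusted p = 1.73e-05), and only the backfat array of female 21, at 8.43, reached the liver range. Without that array the log2 difference was -2.19 in place of -1.98. CD82, described as a suppressor of metastasis, ran from 4.85 over 5.65 to 6.34 in liver and lay below 4 on all backfat arrays, which made it at least 2.99-fold lower there when 4 is taken as the floor. CD82 entered the test through its liver values alone. CD81, an entry factor of hepatitis C virus in humans and part of the B cell co-receptor, ran from 10.56 to 11.15 in liver and from 10.42 to 11.04 in backfat. Its difference was -0.06, with a 95% interval from -0.24 to 0.13, the narrowest bound on a tissue difference among the members that were not called.

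Complement regulators protect a cell from the complement attack it would otherwise suffer in plasma. CD59, which blocks the last step of the membrane attack complex, ran from 7.07 over 8.23 to 8.62 in liver and from 11.74 over 12.19 to 12.89 in backfat, a difference of 4.18 ± 0.23 (SE; limma adjusted p = 1.05e-08). Its second probe set was below 4 on all liver arrays and between 4.21 and 6.09 in backfat. CD46, a cofactor for the cleavage of C3b and C4b, ran from 7.78 to 8.33 in liver and from 9.53 to 10.30 in backfat, 3.52-fold higher there. CD55, which speeds the decay of C3 convertases, ran from 5.89 over 6.92 to 7.25 in backfat, and in liver from 3.90 over 3.96 to 4.81. Only 3 of its 8 liver values exceeded 4, so no fold is given, and the call (limma adjusted p = 9.72e-09) says only that backfat was higher. All 3 complement regulators thus stood higher in backfat on every array, as did 26.7% of all probe sets.

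CD47 is the self signal that keeps macrophages from engulfing a cell, and it went the other way. It ran from 10.33 over 10.66 to 10.98 in liver and from 9.86 over 10.11 to 10.29 in backfat, 1.48-fold lower in backfat (limma adjusted p = 0.000666). Its probe sets disagree: one more differed by -0.42, and the last by 0.16 with a limma adjusted p of 0.301. The direction for CD47 therefore rests on which probe set is read. Over all members there were 26 further probe sets, of which 13 could be compared. Of these 13, 12 had the sign of the chosen one, and this last CD47 probe set was the exception. Among those that could not be compared, the second probe sets of CD14 and CD82 were below 4 on all arrays. The chosen ones exceeded 4 on all liver arrays, so the tissue results of CD14 and CD82 rest on the chosen probe set alone. The other probe sets of CD40 were below 4 on all arrays as well.

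The 3 adhesion molecules of endothelium and blood progenitors were called higher in backfat, as were 43.6% of all probe sets, and CD34 entered the test through its backfat values alone. CD34, a sialomucin of capillary endothelium and of progenitor cells, including those of adipose stroma, ran from 4.48 over 5.45 to 6.32 in backfat and was below 4 on all liver arrays, at least 2.80-fold higher in backfat. CD99, which leukocytes and endothelium use in transmigration, ran from 7.91 over 8.15 to 8.46 in liver and from 10.35 over 10.81 to 11.01 in backfat, 5.84-fold higher (limma adjusted p = 3.60e-10). CD164, an endosomal sialomucin, overlapped between the tissues, with 10.61 to 11.29 in liver and 11.12 to 12.46 in backfat, and differed by 0.97 (limma adjusted p = 8.38e-06). Both of its other probe sets differed the same way, by 0.87 and 0.79. Beside this, the mean of 7 endothelial markers ran from 7.86 to 8.90 in backfat and from 5.50 to 6.30 in liver. That of 5 stromal markers ran from 8.96 to 10.02 and from 5.28 to 6.19. Not every marker followed its mean. KDR was below 4 on all arrays, and TEK ran from 7.64 to 8.40 in backfat and from 7.67 to 9.15 in liver. COL3A1 ran from 3.34 to 4.87 in backfat and from 4.44 to 5.29 in liver. The part of endothelial and stromal cells in the differences of the 3 members was not tested.

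Of the 3 myeloid receptors, CD14 was called lower in backfat and CD93 and CD300C lay below 4 on all arrays. CD14, which hands lipopolysaccharide to Toll-like receptor 4, ran from 8.35 over 9.28 to 9.36 in liver and from 3.04 over 3.63 to 4.48 in backfat. No fold is given, because 3 of 8 backfat arrays exceeded 4, but the tissues did not overlap (limma adjusted p = 6.71e-11). CD5L, which matches the name rule although it encodes a protein that macrophages secrete, ran from 11.58 over 12.05 to 12.37 in liver and from 4.01 over 4.90 to 5.71 in backfat. Its difference was -7.16 ± 0.23 (SE; limma adjusted p = 7.61e-11), and its second probe set gave -6.55.

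The mean of 6 macrophage markers, with CD163, C1QA and AIF1 among them, ran from 7.73 to 8.42 in liver and from 4.20 to 6.39 in backfat. MARCO was below 4 on all arrays. Hepatocyte marker values on the backfat arrays are given beside the CD5L level. The mean of the hepatocyte markers there ran from 3.70 to 7.27, with ALB between 3.62 and 10.09. The backfat array of male 15 had both the highest CD5L, 5.71, and the highest hepatocyte mean, 7.27, while female 21 had 5.03 for CD5L and the lowest hepatocyte mean, 3.70. The part of hepatocyte RNA in the CD5L level was not tested.

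Genes of antigen presentation and costimulation gave 3 calls towards backfat, 2 genes without a call and 3 genes below 4 on all arrays. Over all probe sets 43.6% were called higher in backfat. CD58, the ligand of CD2, ran from 6.05 to 7.10 in liver and from 6.10 to 7.24 in backfat, a difference of 0.12 with a 95% interval from -0.14 to 0.39. CD40, which receives help from T cells, ran from 4 to 4.76 in liver and from 3.88 to 4.84 in backfat, with an interval from -0.45 to 0.15. CD200, a ligand that calms myeloid cells, was called higher in backfat, at 4.15 to 5.65 against 3.51 to 4.05 in liver (limma adjusted p = 9.50e-06).

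The remaining calls of this group lie at the detection limit. CD209, a lectin of dendritic cells and macrophages, exceeded 4 on 2 backfat arrays, the high-fed male 14 at 5.33 and the high-fed female 22 at 4.35, and on no liver array. Its call was lost when values under 4 were set to 4 (limma adjusted p = 0.251). CD83, a marker of mature dendritic cells, exceeded 4 on 2 backfat arrays as well, those of the high-fed male 14 and female 21, at 4.16 and 4.30. CD83 was below 4 on all liver arrays too, so both genes entered the test through backfat alone. Their calls therefore support nothing about the group. CD80 and CD86, the ligands of CD28, and the lipid-presenting CD1E were not tested, as they never passed 4.

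T cell and natural killer cell receptors were close to the floor in both tissues. CD3D, CD3E and CD3G, the chains that pair with the T cell receptor, never exceeded 3.44, and neither did CD4, CD8B, CD27 or CD69. CD2, the adhesion receptor that binds CD58, reached 4.25 to 4.51 on 4 liver arrays and stayed between 2.68 and 2.89 in backfat. CD8A, the co-receptor of cytotoxic cells, ran from 3.57 over 4.13 to 4.71 in liver and from 3.20 to 3.45 in backfat. Both were called lower in backfat, with limma adjusted p-values of 0.000969 and 0.000461, but both calls were lost when values under 4 were set to 4, with adjusted p-values of 0.0862 and 0.107.

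CD247 is the zeta chain that carries the signal of the T cell receptor and of some natural killer receptors. It ran from 4.85 over 6.30 to 6.91 in liver and from 6.60 over 7.05 to 7.43 in backfat, and was 1.79-fold higher in backfat (limma adjusted p = 0.00178). Its partners CD3D, CD3E and CD3G were below 4 on the same arrays. The 4 probe sets named CD247 disagree on its presence: a second one ran from 4.91 to 5.62 in liver and from 5.61 to 6.99 in backfat, while the other 2 never exceeded 2.17. LCK and LAT, kinase and adaptor of the same pathway, were below 4 on all arrays too. Among B cell genes, CD38 and CD79B were below 4 on all arrays, and CD180 exceeded 4 on the liver array of the high-fed female 19 alone, at 4.30.

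Position on the genome gave little to share among the members. Entrez IDs placed 37 of the 38 in the RefSeq annotation of Sscrofa11.1. In its order of protein-coding genes CD3D lies directly beside CD3E and CD3G, and CD8A beside CD8B. CD34 and CD46, both called higher in backfat, have 1 gene between them, and so do CD2 and CD58, of which 1 was called.

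Further surface molecules, which apart from the signalling chain FCER1G carry CD numbers under other symbols, were read beside the members. Of 26 listed leukocyte receptors and chains, 17 were measured and 11 tested, 3 higher and 7 lower in backfat. Over all probe sets 43.6% were called higher and 32.2% lower, and the same shares stand beside the counts of the next lists. FCGR2B, an inhibitory Fc receptor, was 37.5-fold lower in backfat, TLR2, a receptor for bacterial lipoproteins, at least 8.54-fold lower, and TLR4, the signalling partner of CD14, 2.91-fold higher. Among 34 listed endothelial and stromal molecules, 28 were measured and 22 tested, 15 of them higher and 2 lower in backfat. PECAM1, which is CD31 of endothelium, was 11.5-fold higher there, VCAM1, an adhesion molecule for leukocytes, 4.86-fold, and ALCAM, the ligand of CD6, 3.65-fold lower. Of 21 listed genes that signal below T and B cell receptors, 11 were measured and 7 tested, 2 higher and 3 lower. FYN and PLCG1, a kinase and a phospholipase, were 5.06-fold and 3.76-fold higher in backfat, and LYN, a kinase of B cells and myeloid cells, 4.09-fold lower.

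The second comparison was that of feeding level within a tissue, taken as low minus high. In liver no member passed in limma, 20 being tested, and 0% of all 12617 probe sets did. Of the 20 members, 2 had an unadjusted p below 0.05, or 10% beside 11.5% of all probe sets, and 0 did not overlap between the levels, beside 5.90%. The difference was negative for 13 members, beside 51.8% of all probe sets. The median difference of the members was -0.11, beside -0.01. CD58 had the values 6.21, 6.05, 6.41 and 7.03 on the low arrays and 6.89, 6.76, 6.82 and 7.10 on the high ones. Its difference was -0.47 ± 0.17 (SE; limma adjusted p = 0.387), and the low array of female 21 lay within the high range.

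CD55 had the lowest p in liver (limma adjusted p = 0.318). Its 2 low-fed males stood at 4.81 and 4.79 and its other liver arrays, low-fed females included, between 3.90 and 4.01, so no difference is given. CD164 had -0.33, CD5L 0.38, CD247 -0.54 and CD47 -0.31, with limma adjusted p-values from 0.430 to 0.512. Their other tested probe sets had -0.48 and -0.52 for CD164, 0.29 for CD5L, 0.09 for CD247, and -0.21 and 0.02 for CD47. The 2 for CD164 had unadjusted limma p-values of 0.0133 and 0.00595. The signs for CD247 and CD47 depend on which probe set is read. CD14 in liver had -0.25, with a 95% interval from -0.68 to 0.17.

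**Figure D3:**
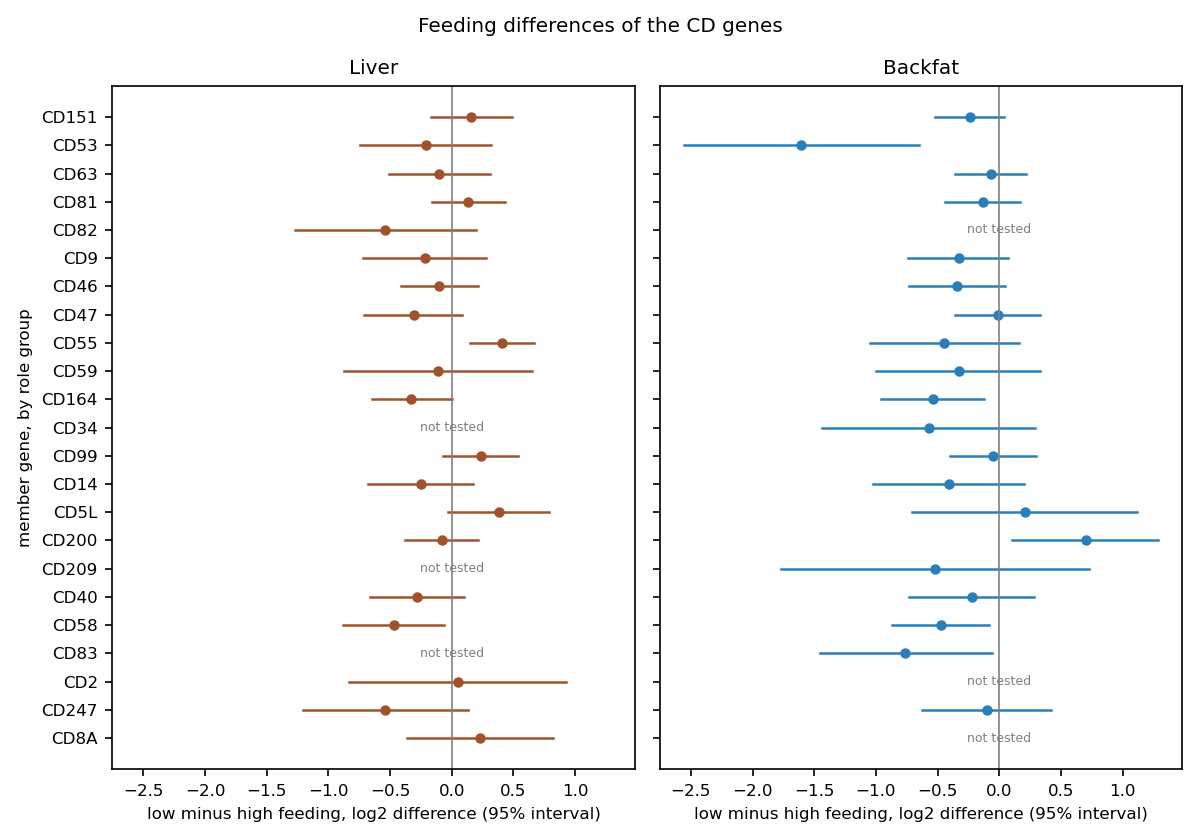
Dots give the low minus high difference on the log2 scale and lines its 95% interval from limma, unadjusted, for each tested member in liver and backfat. In backfat the points lie left of 0 for 18 of 20 genes, CD53 furthest, and CD200 lies furthest right. CD83 and CD209 are among those on the left and entered the test only through high-fed arrays.

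In backfat, CD53 had the largest feeding difference of any member. Its values were 5.59 and 5.87 in low-fed males 15 and 16, 5.13 and 5.44 in low-fed females 20 and 23, 7.12 and 6.21 in high-fed males 14 and 17, and 8.43 and 6.68 in high-fed females 21 and 22. All low arrays lay below all high ones. The difference was -1.61 ± 0.40 (SE; limma adjusted p = 0.262), which did not pass, and across the alternatives tried the adjusted p ran from 0.0672 to 0.599. Without female 21 it was -1.17 (adjusted p = 0.324), and without female 22 it was -2.04 (adjusted p = 0.0672). A second CD53 probe set was also lower at the low level, with an unadjusted limma p of 0.0129. It ran from 2.36 to 6.90 in backfat, across the limit of 4, so no size is given. The third probe set, at 3.28 to 3.82, was below 4 on all backfat arrays.

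Values of other cell type markers on the same arrays are given beside this. The mean of the 6 macrophage markers ran from 4.20 to 5.08 at the low and from 5.05 to 6.39 at the high level, with female 21 highest and a small overlap. Of the 6, CD163 and AIF1 did not overlap between the levels, C1QA, C1QC and VSIG4 did, and MARCO was below 4 on all arrays. CD163 ran from 3.70 to 4.54 at the low and from 5.16 to 6.53 at the high level, and AIF1 from 5.64 to 6.92 and from 7.06 to 8.56. C1QA ran from 4.05 to 5.35 and from 4.70 to 6.03, C1QC from 6.59 to 7.28 and from 7.01 to 9.08, and VSIG4 from 2.92 to 4.10 and from 3.97 to 5.74. The list means of T cell markers (3.07 to 3.17 and 3.10 to 3.18), of neutrophil markers (2.89 to 3.85 and 2.99 to 3.85) and of B and plasma cell markers (3.99 to 4.56 and 4.16 to 4.36) overlapped. However, 6 of 7 T cell markers, 3 of 4 neutrophil markers and 1 of 2 B and plasma cell markers lay below 4 on all backfat arrays. Means so near the floor cannot show whether these cells differed between the levels. The hepatocyte mean ran from 4.62 to 7.27 at the low and from 3.70 to 5.84 at the high level, and the adipocyte mean from 11.69 to 11.85 and from 11.85 to 12.78. The part of any of these in the CD53 difference was not tested.

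Beyond CD53, CD164 and CD58 did not overlap between the levels. CD164 had 11.98, 11.83, 11.58 and 11.12 on the low arrays and 11.99, 12.46, 12.24 and 12 on the high ones, a difference of -0.54 ± 0.18 (SE; limma adjusted p = 0.345), with a gap between the levels of the size of rounding. CD58 had 6.76, 6.63, 6.69 and 6.10 at the low level and 7.04, 7.24, 6.92 and 6.88 on the high-fed arrays, a difference of -0.47 ± 0.16 (SE; limma adjusted p = 0.369). CD200 and CD5L were the 2 members with a positive difference, that of CD5L being 0.21. CD200 had 4.87, 5.53, 5.65 and 5.37 at the low and 4.40, 4.15, 4.60 and 5.48 at the high level. The CD200 difference was 0.70 ± 0.25 (SE; limma adjusted p = 0.388), or 0.48 without female 21, and high-fed female 22 lay among the low arrays. CD83 exceeded 4 on 2 high arrays and no low one, so no difference is given, and CD46 had -0.34.

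**Figure D4:**
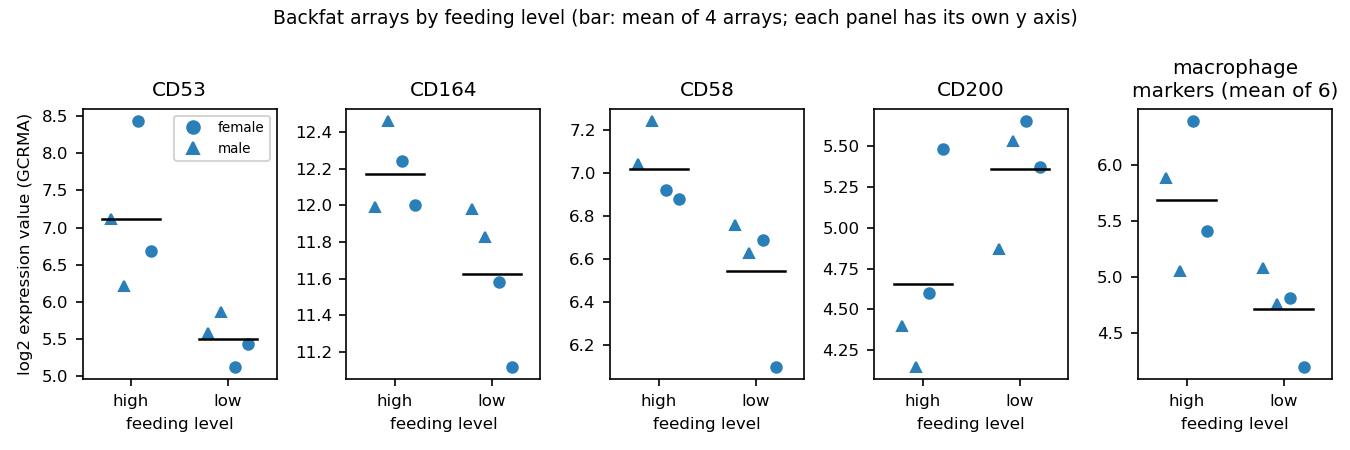
Each symbol is 1 backfat array (circles female, triangles male) on the log2 expression scale, each bar the mean of 4 arrays, and each panel has its own axis. CD53, CD164 and CD58 lie lower on all low-fed arrays, CD200 leans higher with 1 high-fed female among the low arrays, and the mean of the macrophage markers is 4.20 to 5.08 at the low and 5.05 to 6.39 at the high level.

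No member passed for feeding in backfat in limma, 20 being tested, and 0% of 12686 probe sets did. An unadjusted p below 0.05 was reached by 5 members, or 25%, beside 11.1% of all probe sets, but by 1 member without female 21, 2 without female 23 and 3 without male 17. The levels did not overlap for 3 members, all lower at the low level, beside 6.61% of all probe sets in either direction and 3.36% lower. The difference was negative for 18 of 20 members, beside 48.9% of all probe sets, and the median was -0.33 beside 0.01. CD83 and CD209 exceeded 4 on 2 high-fed arrays each and on no low-fed one. They entered the test only through the level at which they are high. Their negative signs, and CD83 among the 5 members above, therefore support nothing about feeding. Without female 21, 16 of 19 were negative, with a median of -0.30, and without male 14, 14 of 18. The shares over all probe sets are those of the full backfat fit and move with the array left out. Counts without an array therefore cannot be read against them. The members share arrays and are not independent, so the counts describe the list and are not a test.

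For feeding in backfat, 8 of the listed leukocyte molecules were tested and 0 passed in limma. The difference was negative for 6, beside 48.9% of all probe sets, an unadjusted p below 0.05 was found for 3, beside 11.1%, and 2 did not overlap, beside 6.61%. TLR4 had 0.02, SIRPA, an inhibitory receptor for CD47, 0.05, and the chemokine receptor CXCR4 -0.30. FCER1G, the signalling chain of Fc receptors, had -1.75 ± 0.36 (SE; limma adjusted p = 0.212). ITGB2, the integrin chain CD18 of leukocytes, was below 4 on all low arrays and was at least 2.35-fold lower there (limma adjusted p = 0.228). ITGB2 thus entered the test through the high-fed arrays alone, so its place in each of these counts supports nothing about feeding. FCGR3A, which is CD16, had -0.86. Of 22 endothelial and stromal molecules 0 passed, 3 had an unadjusted p below 0.05 and 2 did not overlap, VCAM1 with -0.45 and ITGB1 with -0.32, against the same shares of 11.1% and 6.61%. The difference was negative for 16 of these 22, beside 48.9% of all probe sets. Of 6 tested genes of receptor signalling 0 passed. The difference was negative for 5, beside 48.9% of all probe sets, and 2 had an unadjusted p below 0.05, beside 11.1%. The levels did not overlap for 2, LYN and VAV1, beside 6.61% of all probe sets. VAV1 was below 4 on all low arrays and entered the test through the high ones alone. LYN exceeded 4 on no more than 2 of 4 low-fed arrays, so at the low level both lie near or below the limit.

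Whether the feeding difference itself differed between the tissues was tested with an interaction over all 16 arrays. No member passed in limma, 23 being tested, beside 0.0215% of 13962 probe sets, and 5 had an unadjusted p below 0.05, beside 8.77%. The 6 members of lowest p were CD55, CD53, CD200, CD83, CD151 and CD34, with limma adjusted p-values from 0.423 to 0.616. In liver, CD55 exceeded 4 on 3 of 8 arrays, CD200 on 2 and CD83 and CD34 on 0, so no difference is given for these. CD83 entered the test only through 2 high-fed backfat arrays, so its place among the 5 members above supports nothing about feeding. CD53 had -1.40 ± 0.49 (SE; limma adjusted p = 0.445) and CD151 had -0.40 ± 0.17 (SE; limma adjusted p = 0.560), and both exceeded 4 on all 16 arrays. The 95% interval for CD53, not adjusted for the number of probe sets, ran from -2.48 to -0.31. Without the backfat array of female 21 its difference was -0.96.

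Sex is the other factor of the design. In liver, 0 of 20 members passed in limma, beside 4.53% of 12617 probe sets, and 5 had an unadjusted p below 0.05, beside 19.2% of them. CD14 stood at 9.35, 9.36, 9.29 and 9.32 in females and at 9.27, 8.35, 8.41 and 8.51 in males, a female minus male difference of 0.70 ± 0.18 (SE; limma adjusted p = 0.0888). It passed without male 14, whose 9.27 lay beside the females, with 0.88 and a limma adjusted p of 0.0234. CD55 was not above 4 in any female and was at least 1.30-fold lower there (limma adjusted p = 0.0814), with the 2 low-fed males at 4.81 and 4.79 and the others at 3.90 and 4.01. CD247 had -0.82, CD81 0.29 and CD151 0.30, with limma adjusted p-values from 0.177 to 0.303. CD200 lay lower on all female arrays, at 3.51 to 3.71, than on the male ones, at 3.76 to 4.05, all near the limit of 4. In all, 4 of 20 members did not overlap between the sexes, beside 11.8% of probe sets.

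In backfat, 0 of 20 members passed for sex in limma, beside 0.110% of 12686 probe sets, and 1 had an unadjusted p below 0.05, beside 6.04%. The sexes overlapped for all 20, where 3.54% of all probe sets did not overlap. The member with the low p was CD9, at 10.93, 11.20, 11.09 and 10.48 in females and 10.50, 10.02, 10.52 and 10.48 in males, a difference of 0.54 ± 0.17 (SE; limma adjusted p = 0.749). CD200 had 0.54, CD99 -0.28, CD164 -0.33, CD58 -0.27 and CD247 0.33, with limma adjusted p-values from 0.822 to 0.854.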

How the data were processed

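Each array's column, as deposited, holds log2 values from GCRMA, which the submitters' processing notes name without a version or settings. The labels' protocols name RiboPure extraction and biotinylated cRNA. Of 24123 probe sets, 124 controls were left out, and 10069 of the rest carried 1 symbol. From these values, group means of sex, feeding level and tissue were fitted with limma 3.58.1 in R 4.3.3 (lmFit, eBayes) on probe sets above 4 on at least 2 arrays of the fit, per tissue for feeding and sex and over 16 arrays for tissue and the interaction. P-values were adjusted by Benjamini-Hochberg over all probe sets of a fit. The fits were tested on simulated arrays. A fold against a group wholly below 4 is a bound against 4, and none is given where only some arrays, up to 4 of 8 or 2 of 4, exceed 4. The number of arrays limits the precision.

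The members, role groups, marker lists and alternatives were chosen with earlier results of these data known. Named are up to 10 higher and 10 lower members for tissue, and for other comparisons the 6 of lowest p. Role groups add up to 4 examples of lowest p, and each list of associated genes up to 4. Members at the floor, the feeding value of CD14 in liver and single markers beside a result were added after their values were seen. Alternatives were no filter, a filter at 6, trend with robust estimation, quantile normalization, values under 4 set to 4, a gene's probe sets averaged, main effects only, each array left out, a joint fit of all 16 arrays, and a block for the animal.

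Animal numbers pair the tissues of 4 males, per the labels. Their deviations from group means correlated at 0.0549 to 0.0874 between the tissues. No date or batch is given in the labels.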

Additional observations from a re-analysis of the deposited data

Results flagged for a closer look

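CD14 in the liver of the high-fed male 17 stood at 8.51, while the other 3 high-fed livers lay between 9.27 and 9.36, a gap of 0.889 of the group's range. The group holds both sexes: the low-fed males stood at 8.35 and 8.41, and the high-fed male 14 at 9.27. The value of male 17 was the only one that stood this far from its group among 112 groups of 4 or 8 arrays examined for 22 members, and the limit used is passed by chance in about 1 of 20 groups.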

How the results depend on the processing

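Of 47 named results for a member in a comparison, 42 kept their direction and side of the threshold in all alternatives run, and 0 changed direction. The tissue calls of CD209, CD2 and CD8A were lost with values under 4 set to 4, with differences of 0.21, -0.17 and -0.19. The count of 20 members called between tissues ran from 18 to 20 with an array left out and from 14 with a filter at 6 to 23 with no filter. With the animal as a replicate block it was 20, and in males alone with a fixed replicate block 17 of 20 tested. CD209 and CD83 leave the test without male 14, since each then exceeds 4 on 1 array. For sex in liver 1 member, CD55, passed with no filter (adjusted p = 0.0230), and 0 to 1 passed with an array left out. In limma 0 members passed for feeding, for the interaction or for sex in backfat in any alternative. Over all probe sets, all 16 arrays in 1 fit gave 11 calls for feeding in liver, 53 for feeding in backfat (54 with the replicate block), 907 for sex in liver in place of 572 and 27 for sex in backfat in place of 14. No filter gave 333 for sex in liver, and 15 in place of 3 for the interaction, which ran from 1 to 34 with an array left out. The block changed no call of a member.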
